A study of Mus musculus with 564 samples.

Results

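The guanylate-binding protein genes Gbp2, Gbp3, Gbp5 and Gbp7 and the immunity-related GTPase genes Irgm1, Irgm2, Igtp, Iigp1 and Ifi47 were followed through the acetylation of histone H3 at lysine 27 (H3K27ac) at the cis-regulatory elements (CREs) around them. A CRE was taken as a member if its centre lay within 25 kb of a RefSeq transcription start of one of these 9 genes in mm10, which gave 43 CREs of the 59190 in the table. Of these, 19 lay at the GBP genes on chromosome 3, 23 at the IRG genes on chromosome 11 and 1 at Iigp1 on chromosome 18. Of the 43, 33 had a member as the nearest protein-coding gene and 10 had another gene.

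Both families encode interferon-inducible GTPases that defend the cell interior. Guanylate-binding proteins assemble on the membranes of bacteria and of parasite-holding vacuoles and help to open them and to activate inflammasomes. Immunity-related GTPases are loaded onto such vacuoles under the control of the regulatory members Irgm1, Irgm2 and Igtp, while Iigp1 and Ifi47 belong to the effector type. In macrophages, lipopolysaccharide (LPS) signals through TLR4 to NF-kB and IRF3, and the interferon-beta made in response acts back on the cell through the kinases JAK1 and TYK2 and transcription factors that include STAT2 and IRF9. IL-4 signals through JAK1, JAK3 and STAT6. H3K27ac marks active promoters and enhancers, and its level is not a measurement of RNA or protein.

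The cells of all groups were macrophages grown from the bone marrow of wild type C57/BL6 mice (BMDMs). In every group they received a 1 h pre-treatment, either with DMSO, the vehicle, or with a clinical kinase inhibitor (CKI), of which there were 58, and were then stimulated with LPS or IL4 at 10 ng/mL for 30 min, 1 h, 2 h or 4 h, or left unstimulated (UT). The 564 libraries comprised 18 of DMSO cells, with 2 libraries (R1 and R2) in each of 9 groups, and 546 of CKI-treated cells, mostly with 1 library for each CKI, stimulus and time. Nothing in the labels says that R1 and R2 came from separate cultures or mice, so the p-values measure the spread between these libraries, which may be technical. The UT libraries are titled 0 h while their treatment label reads 4 h, so no time is given to them here. The dose of each CKI was set from its binding to one intended kinase, so doses differ between compounds. The 6 inhibitors designated against Janus kinases were Filgotinib (JAK1), Tofacitinib (JAK3), Ruxolitinib and Momelotinib (JAK1 and JAK2), Pacritinib (JAK2 and FLT3) and BMS911543 (JAK2). Of these 6, the dose was set for a kinase of the JAK family only with Ruxolitinib (JAK2) and Pacritinib (TYK2), and for the other 4 it was set for a kinase or protein outside that family. Among the other CKIs, the doses of Apitolisib (JAK1), MK5108 (JAK2) and TG100572 (TYK2) were set for a JAK kinase.

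The values are normalized read counts per CRE. Their sums ran from 5923684 to 6873668 in DMSO libraries and from 4066894 to 12391409 in CKI libraries. The contrast of a library, here its median value at CREs in the top 10% of mean signal divided by that at CREs in the bottom 10%, was 53 to 134 in DMSO and 3.34 to 67.2 in CKI libraries, so the 2 kinds overlapped only over a narrow range. In the column order of the table the CKIs fell into 6 runs, and a CKI was compared with the other CKIs of its own run. The labelled cell type was checked at marker genes. The start CREs of 8 of 8 macrophage genes ranked at the 87th percentile or above of all CREs in UT cells, whereas most T cell, B cell, neutrophil, fibroblast, epithelial and erythroid markers had no CRE at their start and the highest of those that had one, Ms4a1, lay at the 63.2 percentile.

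The promoters are printed to show which interferon-response letters lie beneath the start CREs whose acetylation is described next. Each runs 5′ to 3′ from 250 bases before to 50 bases after the RefSeq start (build GRCm38.p6): Gbp2 at chr3:142620413-142620712 and Gbp5 at chr3:142496684-142496983 on the + strand, Irgm1 at chr11:48871371-48871670 on the − strand, and Igtp at chr11:58199306-58199605 and Irgm2 at chr11:58214727-58215026 on the + strand. Capitals mark matches on either strand to the interferon-stimulated response element (ISRE) core GAAANNGAA, the STAT site (GAS) TTCNNNGAA or the kappaB letters GGNNTTTCC.
Gbp2: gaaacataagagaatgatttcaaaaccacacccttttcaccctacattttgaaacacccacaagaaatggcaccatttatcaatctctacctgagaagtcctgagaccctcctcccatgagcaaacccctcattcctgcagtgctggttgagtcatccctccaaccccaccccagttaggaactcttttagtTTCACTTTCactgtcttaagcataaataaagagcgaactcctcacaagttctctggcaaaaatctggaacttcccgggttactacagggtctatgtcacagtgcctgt
Gbp5: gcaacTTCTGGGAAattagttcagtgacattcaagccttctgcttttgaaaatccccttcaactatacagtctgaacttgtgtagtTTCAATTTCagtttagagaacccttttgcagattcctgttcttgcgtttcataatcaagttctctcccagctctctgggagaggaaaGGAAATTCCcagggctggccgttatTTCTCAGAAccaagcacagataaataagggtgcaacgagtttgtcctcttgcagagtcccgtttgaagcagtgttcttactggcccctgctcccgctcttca
Irgm1: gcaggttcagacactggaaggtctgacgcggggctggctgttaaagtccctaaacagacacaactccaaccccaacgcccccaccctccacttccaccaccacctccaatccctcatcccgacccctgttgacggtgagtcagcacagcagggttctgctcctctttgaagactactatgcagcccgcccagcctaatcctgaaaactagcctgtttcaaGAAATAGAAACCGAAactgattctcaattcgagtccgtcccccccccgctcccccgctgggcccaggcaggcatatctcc
Igtp: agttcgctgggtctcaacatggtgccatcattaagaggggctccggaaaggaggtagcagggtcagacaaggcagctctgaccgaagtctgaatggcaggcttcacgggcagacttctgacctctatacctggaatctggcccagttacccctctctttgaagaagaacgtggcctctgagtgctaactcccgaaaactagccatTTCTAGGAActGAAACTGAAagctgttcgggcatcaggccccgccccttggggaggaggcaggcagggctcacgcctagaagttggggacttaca
Irgm2: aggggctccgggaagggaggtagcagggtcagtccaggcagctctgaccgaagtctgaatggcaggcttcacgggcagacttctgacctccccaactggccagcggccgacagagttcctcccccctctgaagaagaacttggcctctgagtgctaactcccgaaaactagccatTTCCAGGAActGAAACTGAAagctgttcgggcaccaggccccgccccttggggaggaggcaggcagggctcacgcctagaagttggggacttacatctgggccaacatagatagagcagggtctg
The ISRE letters stood in 7 of the 9 member promoters searched, against 8.56% of 32851 promoters of the same length. The promoters of Iigp1 and of the downstream Ifi47 start were not among the 9. The GAS letters stood in 4 of 9 (8.30% of all promoters), those of Gbp5, Gbp7, Igtp and Irgm2. The kappaB letters stood in 1 of 9 (5.82% of all), that of Gbp5, where they read GGAAATTCC at positions −77 to −69 before the start. The promoter of Gbp2 holds a single ISRE match, TTCACTTTC on the printed strand at −58 to −50, and that of Irgm1 holds 2 overlapping ones. The second Gbp3 promoter and the upstream Ifi47 promoter hold none of the letters searched. Igtp and Irgm2 share the stretch with GAAACTGAA. Within the printed promoters their longest identical run was 61 bases. It reaches the last printed base of Igtp, so the full run may be longer. Short reads there may not tell these 2 genes apart. Of all 51-base windows of the Igtp and Irgm2 start CREs, 17.4% and 16.3% occurred more than once in the genome, while at the Gbp2, Gbp7 and Irgm1 start CREs 0 did.

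LPS raised H3K27ac at both families in DMSO cells, but along different time courses. The GBP start CREs were already higher at 30 min. The IRG start CREs on chromosome 11 had means below UT at 30 min, past the test at Irgm1, Irgm2 and the downstream Ifi47 start, and were higher at 2 h and 4 h. In all, 34 of 43 member CREs passed the test after LPS (limma F-test over 4 times, Benjamini-Hochberg adjusted p below 0.01, and a log2 difference beyond 1 at some time), 31 of them higher and 3 lower at their largest difference. Over all 50697 CREs tested 53.5% passed, 29% higher and 24.6% lower. The 8 start CREs, 1 for each member but Iigp1, cover a start or lie within 1 kb of one, and of the 2 start CREs of Ifi47 the upstream one is counted. All 8 were higher, with a median largest log2 difference of 2.22 against 0.37 for all tested CREs. At the 10444 tested start CREs of protein-coding genes, 1470 were called higher and 1657 lower.

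Gbp2, a GTPase of pathogen-containing vacuoles, has its start CRE at chr3:142617987-142622166. Its normalized read counts in R1 and R2 were 192 and 194 in UT cells, 419 and 405 at 30 min of LPS, 858 and 724 at 1 h, 1336 and 1420 at 2 h, and 1139 and 1169 at 4 h. Every LPS library lay above both UT libraries, and the highest pair was that at 2 h, with a log2 difference of 2.80 ± 0.11 (SE; limma adjusted p 5.86e-22).

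The Gbp3 start CRE (chr3:142558953-142562537) read 239 and 211 in UT cells, 548 and 598 at 30 min, 788 and 676 at 1 h, 1438 and 1403 at 2 h, and 1105 and 1083 at 4 h. It took the same course, with no overlap between UT and LPS libraries and a largest log2 difference of 2.63 (limma adjusted p 1.41e-20). Gbp5, which promotes NLRP3 inflammasome assembly, read 91 and 116 in UT cells at its start CRE (chr3:142496015-142497594), then 295 and 373, 432 and 451, 701 and 721, and 640 and 614 at the 4 LPS times. Its 30 min difference, 1.64 on the log2 scale, was the largest of the 8 start CREs at that time. Gbp7 (chr3:142529421-142531641) had the smallest difference of the 4 GBP starts at 30 min (0.43): it read 160 and 172 in UT cells, 221 and 231 at 30 min, 556 and 520 at 1 h, 1158 and 1058 at 2 h, and 822 and 838 at 4 h. Its 30 min difference passed the single-time test (adjusted p 0.00213), but not without R2 of LPS at 30 min (adjusted p 0.0148) or R1 of UT (adjusted p 0.0333).

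Irgm1, a regulator of autophagy and of the other IRG proteins, has its start CRE at chr11:48868692-48873196. It read 813 and 859 in UT cells and only 531 and 543 at 30 min of LPS, then 947 and 883 at 1 h, 2417 and 2334 at 2 h, and 2127 and 1938 at 4 h. The libraries at 30 min lay below both UT libraries and those at 2 h and 4 h far above them. The log2 difference was -0.63 at 30 min (limma adjusted p 1.42e-07) and 1.50 at 2 h (F-test adjusted p 1.4e-21).

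The Irgm2 start CRE (chr11:58214081-58215807) read 305 and 274 in UT cells, 157 and 219 at 30 min, 441 in both libraries at 1 h, 802 and 882 at 2 h, and 843 and 721 at 4 h. The fall at 30 min, -0.63, passed the single-time test (adjusted p 0.000175) and so did the later rise. The 30 min call at Irgm2 rested on R1: without the R1 library of that time the difference was -0.39 (adjusted p 0.0226). Igtp (chr11:58198700-58200328), which shares reads with Irgm2, read 219 and 233 in UT cells, 180 and 174 at 30 min, 285 and 305 at 1 h, 731 and 680 at 2 h, and 544 and 619 at 4 h. Its 30 min difference of -0.34 did not pass (adjusted p 0.0252), although both libraries lay below both UT libraries.

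Ifi47 has an upstream and a downstream start, each under a CRE of its own. The downstream one (chr11:49086152-49089292) read 285 and 251 in UT cells, 119 and 169 at 30 min, 446 and 363 at 1 h, 1273 and 1322 at 2 h, and 1143 and 1147 at 4 h. It fell at 30 min, by 0.89 on the log2 scale (adjusted p 8.4e-07), and rose by 2.26 at 2 h. The upstream one (chr11:49075005-49077410) stood at 173 and 202 in UT cells, 142 and 135 at 30 min and 182 and 165 at 1 h, so that up to 1 h no library exceeded the higher UT library. It was at 601 and 639 at 2 h and at 681 and 650 at 4 h, and was the start CRE of a member whose largest difference fell at 4 h (1.80, adjusted p 5.57e-18).

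Iigp1, an effector GTPase that coats Toxoplasma vacuoles, has no CRE at its start. Its single CRE lies in an intron of the gene 6.1 kb downstream of the start (chr18:60380594-60383579). It read 42 and 41 in UT cells, 38 and 43 at 30 min, 58 and 59 at 1 h, 504 and 475 at 2 h, and 444 and 372 at 4 h. Up to 1 h no library exceeded 59, and at 2 h the log2 difference was 3.41 (adjusted p 4.03e-20). Of its 51-base windows, 20.5% were repeated elsewhere in the genome.

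**Figure D1:**
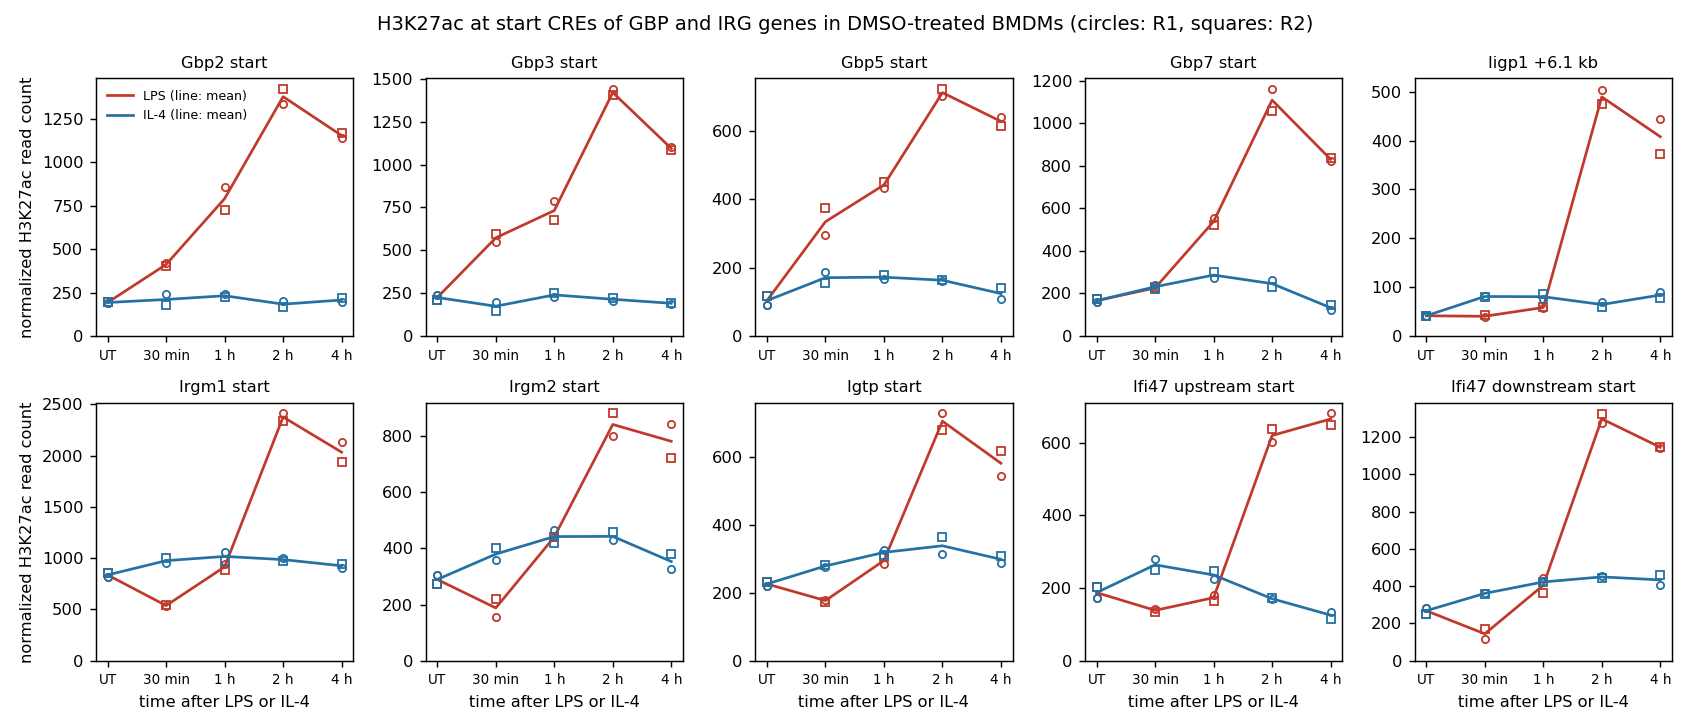
Normalized H3K27ac read count against time after LPS (red) or IL-4 (blue) in DMSO cells for the start CREs and the Iigp1 CRE; circles are R1, squares R2, lines join the means of the 2 libraries, and each panel has its own axis from 0. Gbp2, Gbp3 and Gbp5 climb from 30 min, while Irgm1 and the downstream Ifi47 start dip at 30 min, to means of 537 and 144, before climbing at 2 h.

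The split at 30 min covered the loci and not the start CREs alone. With a test at each single time (adjusted p below 0.01 over all CREs of that time, added after the values had been seen), 12 of 19 GBP CREs were higher and 0 lower at 30 min, whereas 1 of 23 IRG CREs was higher and 10 were lower. Over all CREs 22.2% were higher and 19.2% lower at that time. In the 16 other settings of the fit, the number of GBP CREs higher ran from 10 to 12 with 0 lower, and that of IRG CREs lower from 7 to 11. At 2 h, 16 GBP CREs were higher and 0 lower, and 12 IRG CREs were higher and 3 lower (26.5% and 25.3% of all CREs). The median log2 difference over the GBP CREs was 1.33, 2.00, 2.63 and 2.29 at the 4 times, and that over the IRG CREs -0.63, -0.11, 1.15 and 1.11. CREs of a locus are neighbours and not replicates, so the difference between the loci was not itself tested. The GBP starts lie together, with 123.7 kb from Gbp5 to Gbp2. The IRG starts on chromosome 11 do not all lie together. Irgm1 starts at position 48871420 and Ifi47 at 49076587 and 49087017, whereas Igtp starts at 58199556 and Irgm2 at 58214977.

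Away from the starts, the 5 CREs with the largest LPS differences were all at GBP genes, at positions with little acetylation before the stimulus. The CRE 2.3 kb downstream of the Gbp5 start read 16 and 9 in UT cells, 74 and 39 at 30 min, 216 and 194 at 1 h, 327 and 374 at 2 h, and 513 and 403 at 4 h (largest log2 difference 4.74, adjusted p 1.42e-19). Its highest pair was that at 4 h, whereas that of the Gbp5 start was at 2 h. The CRE 1.7 kb upstream of the Gbp7 start went from 24 and 19 to 496 and 509 at 2 h and was back at 214 and 239 at 4 h (4.27, adjusted p 1.62e-19). The CRE 9.6 kb upstream of Gbp3 took the same transient course, from 2 and 4 to 146 and 147 at 2 h and to 46 and 35 at 4 h (4.25, adjusted p 1.67e-14). The others were the CRE 22.7 kb upstream of Gbp2, in an intron of Gbp2b (6 and 7 to 171 and 174 at 2 h; 3.95, adjusted p 5.81e-16), and that 3.1 kb upstream of Gbp5 (30 and 20 to 455 and 422 at 2 h; 3.91, adjusted p 2.03e-19).

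The 3 CREs that were lower all lay at IRG genes. The CRE 14.7 kb downstream of the downstream Ifi47 start lies nearer to Olfr1396, whose start is 12039 bases away. It read 121 and 98 in UT cells and 43 and 24, 29 and 26, 12 and 7, and 21 and 15 at the 4 LPS times (largest log2 difference -3.00, adjusted p 7.55e-09). The CRE 10.2 kb downstream of Irgm2 read 130 and 101 in UT cells and 25 and 31 at 30 min (-1.86, adjusted p 2.5e-06), and no later LPS library exceeded 59. The third, 16.3 kb upstream of Ifi47 in an intron of Tgtp2, lay at -1.33 at 1 h, and 78.5% of its windows were repeated elsewhere in the genome. The 2 first-named CREs thus moved away from the neighbouring start CREs, which were above UT at 2 h and 4 h.

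**Figure D2:**
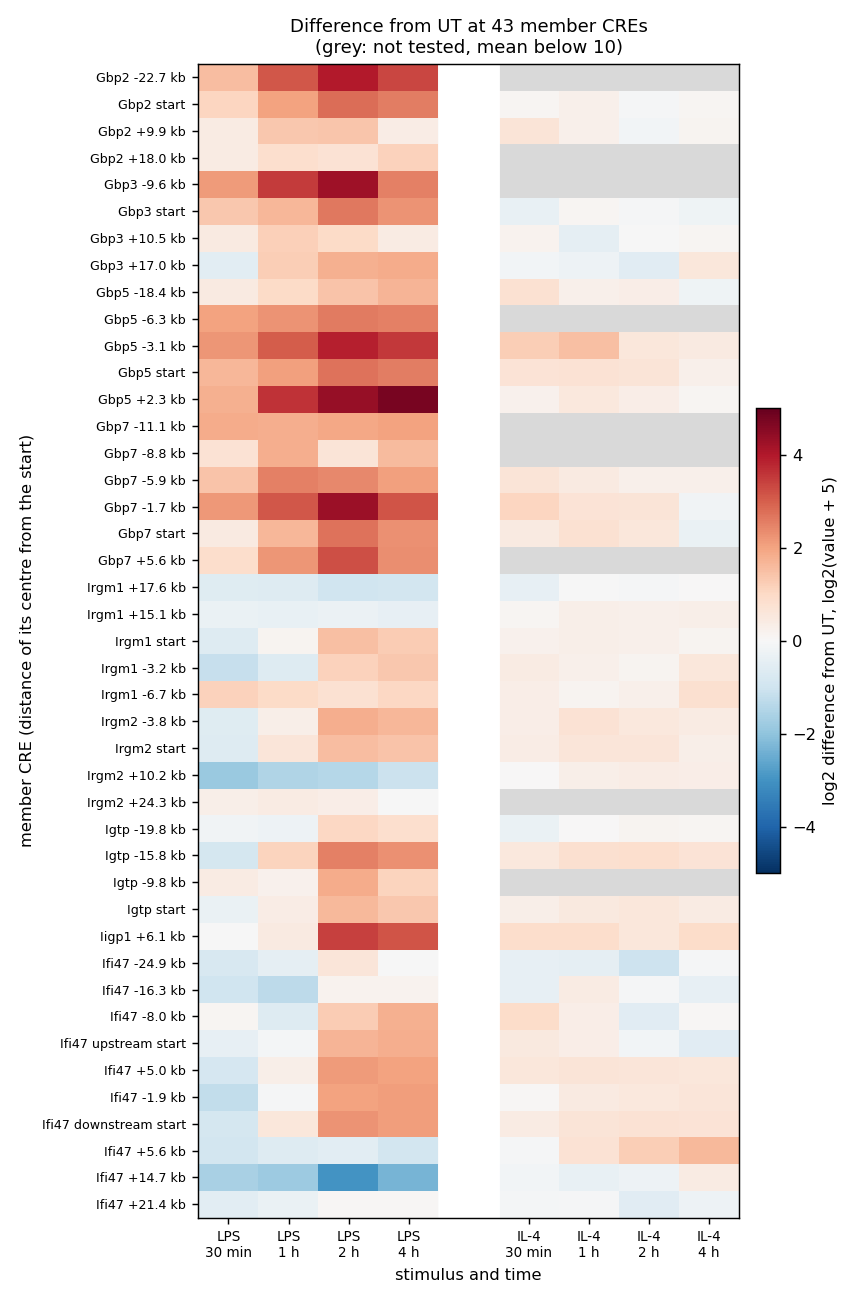
Log2 difference from UT on the log2(value + 5) scale for each of the 43 member CREs (rows, by gene and distance of the CRE centre from the start) at 4 times of LPS and of IL-4 (columns); grey rows had a mean below 10 in the IL-4 comparison and were not tested. The GBP rows are red from 30 min of LPS, with a median of 1.33 there, while most IRG rows are blue at 30 min (median -0.63) and red from 2 h.

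Per kilobase of CRE, the Irgm1, Irgm2 and Igtp starts carried more acetylation than the GBP starts in UT cells. The mean normalized read count per kb was 186 at Irgm1, 168 at Irgm2 and 139 at Igtp, and these 3 did not overlap between libraries. It was 85.3 at the downstream and 77.9 at the upstream Ifi47 start, 74.7 at Gbp7, 65.5 at Gbp5 and 62.8 at Gbp3, where each overlapped with its neighbour in this order, then 46.2 at Gbp2 and 13.9 at Iigp1. At 2 h of LPS the order of levels was Irgm1 (527), Gbp7 (499), Irgm2 (488), Gbp5 (450), Igtp (433), downstream Ifi47 (413), Gbp3 (396.2), Gbp2 (330), upstream Ifi47 (258) and Iigp1 (164). Irgm1, Gbp7 and Irgm2 overlapped with their neighbours there, as did Gbp5, Igtp and the downstream Ifi47 start.

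IL-4 left the start CREs within a log2 difference of 1 of their unstimulated level. It was tested against the same UT libraries as LPS. Of the 34 member CREs with enough signal, 4 passed the test, 3 of them higher and 1 lower, against 24.7% of 47018 CREs (13.6% higher and 11% lower), and 0 of the 8 start CREs did (limma; the same 7 of 8 had an adjusted and an unadjusted p below 0.05, all but Gbp2, with largest log2 differences from -0.56 to 0.77). The Gbp2 start read 242 and 179, 241 and 223, 202 and 165, and 197 and 218 at the 4 IL-4 times, around its UT values of 192 and 194. The Irgm1 start read 950 and 1000, 1064 and 969, 1000 and 971, and 908 and 942, each above both UT values, but with a log2 difference of at most 0.28 (adjusted p 0.0145).

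Small differences with adjusted p below 0.01 were seen at 5 start CREs. They reached 0.71 at Gbp5 (166 and 178 at 1 h), 0.77 at Gbp7 (273 and 300 at 1 h), 0.61 at Irgm2 and 0.57 at Igtp (429 and 457, and 314 and 363, at 2 h), and -0.56 at the upstream Ifi47 start (135 and 116 at 4 h). The Iigp1 CRE read 82 and 80, 75 and 86, 69 and 60, and 91 and 77, all above UT, with a log2 difference of 0.93 (adjusted p 0.000594) that stayed short of 1.

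The 4 CREs called after IL-4 lay away from the starts. The CRE 3.1 kb upstream of Gbp5 rose briefly, from 30 and 20 to 73 and 56 at 30 min and 74 and 82 at 1 h, and was back at 30 and 41 at 4 h (1.49 at 1 h). The CRE 1.7 kb upstream of Gbp7 was higher by 1.07 at 30 min. Both were among the strongest LPS-responsive CREs as well. The CRE 5.6 kb downstream of the downstream Ifi47 start was above UT after IL-4 and below UT after LPS: it read 79 and 68 in UT cells, 58 and 87, 105 and 148, 163 and 192, and 249 and 225 at the IL-4 times (1.63 at 4 h, adjusted p 7.09e-12), and between 36 and 53 in the 8 LPS libraries, where its difference did not pass (adjusted p 0.013). The fourth, 24.9 kb upstream of Ifi47, fell by 1.03 at 2 h. It covers the start of 9930111J21Rik2, and 93.7% of its windows were repeated elsewhere.

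The 2 stimuli were compared directly at each time. Of 41 member CREs tested, 35 passed, against 58.4% of all CREs tested. At the largest difference 8 of 8 start CREs were higher in LPS, as were 29.2% of all CREs, and as many of all were lower. At 30 min the order was different at the IRG starts. Of the 8 start CREs 4, all of IRG genes, were lower in LPS than in IL-4 and 3 were higher (24.7% and 17.4% of all CREs). The log2 difference between LPS and IL-4 at that time was -0.85 at Irgm1, -1.01 at Irgm2, -0.64 at Igtp and -0.91 at the upstream Ifi47 start, and 0.97 at Gbp2, 1.71 at Gbp3 and 0.95 at Gbp5. Gbp7 stood at -0.03. At 2 h the same differences were 1.26 at Irgm1 and 2.88 at Gbp2. The CRE 5.6 kb downstream of Ifi47 had a difference of -2.54 at 4 h (adjusted p 1.33e-15).

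Other genes of the pathway were read from lists chosen with earlier results of these data known. Among the start CREs of 20 genes of interferon production and response, 12 were called higher after LPS and 1 lower, with a median largest log2 difference of 1.28. Ifnb1, which encodes interferon-beta, was highest at 1 h, at 3.67, and had reached 2.83 at 30 min. Stat2, a transcription factor of the interferon response, stood at -0.45 at 30 min and at 1.61 at 2 h, below and then above UT as Irgm1 was. Irf7 and the feedback inhibitors Socs1 and Usp18 also had small negative 30 min values (-0.23, -0.37 and -0.12) and were higher by 1.82, 2.45 and 2.48 at 2 h. These negative values were not those of the list as a whole, whose median at 30 min was 0.39. Jak2 was higher by 1.80 at 30 min and 2.73 at 2 h. The gene of the list called lower was Ifngr1, a chain of the interferon-gamma receptor (-1.06 at 4 h).

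Of 16 NF-kB target genes, 15 were called higher after LPS, with a median of 1.90. Their median was 1.74 at 30 min and 1.57 at 4 h, whereas for the 8 member start CREs it was 0.05 and 2.03. The member median at 30 min describes neither family. The GBP starts stood at 0.43 (Gbp7) to 1.64 (Gbp5) then, and the IRG starts at -0.63 (Irgm1) to -0.34 (Igtp). Il1a stood at 3.48 and Tnfaip3 at 2.15 at 30 min, beside 1.64 for Gbp5. Of 11 start CREs of other genes of the GTPase families, 5 were called higher and 3 lower. Those of Gm12250 and 9930111J21Rik2 are also member CREs, 15.8 kb upstream of Igtp and 24.9 kb upstream of Ifi47. Gm12250, an IRG gene next to Igtp, reached 2.51 and Gbp9 1.32, while the IRG gene Gm5431 fell by 1.89 at 30 min. After IL-4, 4 of the 20 interferon genes were called higher, with Socs1, an inhibitor of JAK kinases, at 2.25 and Jak2 at 1.22.

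Over the 9 group means of DMSO cells, the start CREs with profiles most like the mean profile of the 8 member start CREs were those of Slfn9 (Pearson r 0.997), Slc25a12 (0.994), Tdrd7, Slfn8, Oas2, Mndal, Oas1a, Atp13a1, Trim30d and Parp12 (0.988), out of 10441 start CREs. The members themselves correlated with it at 0.86 (Gbp3) to 0.97 (Gbp7). These values are a description over 9 means that share libraries and carry no test.

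In CKI-treated cells the LPS response of the members persisted. The change from UT to the mean of 2 h and 4 h of LPS could be read in 53 CKIs, and at the Gbp2, Gbp3, Gbp5, Gbp7, Irgm1, Igtp and Ifi47 start CREs it was above 0 in 53 of 53. At Irgm2 it was above 0 in 52, the exception being AZD2014, an mTOR inhibitor, at -0.18. The Gbp2 change ran from 1.30 with PF04691502 to 3.52 with Tofacitinib, with a median of 2.12 and 2.68 in DMSO. At Irgm1 it ran from 0.10 with PH797804 to 1.38, with a median of 0.95 and 1.39 in DMSO. Levels of CKI and DMSO cells are set side by side only as values, because their libraries differ in contrast.

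No member CRE passed the test between the JAK inhibitors as a set and the other CKIs. With 1 value per compound, the mean of 2 h and 4 h of LPS, and run as a term, limma called 0 of 43 member CREs between 6 JAK inhibitors and 47 other CKIs (1 at an unadjusted p below 0.05, the CRE 5.6 kb downstream of Ifi47, which was higher; 5.49% of all CREs reached it). Over all 59169 CREs 0.00338% were called. The 8 start CREs all lay below 0, from -0.17 at Gbp3 to -0.09 at Gbp5, with a median of -0.13, where all CREs had a median of 0.07. The shift was not particular to the members. Of the lists above, 17 of 20 interferon genes, 11 of 16 NF-kB targets and 7 of 11 other family genes lay below 0 (medians -0.05, -0.06 and -0.08). The other family genes include Gm12250 and 9930111J21Rik2, whose start CREs are member CREs as well. At Gbp2 the difference was -0.12 ± 0.11 (SE; limma adjusted p 0.891), with a 95% interval from -0.33 to 0.09, and at Irgm1 -0.10 with an interval from -0.33 to 0.14. The lowest bounds of the 8 intervals were -0.39, at Gbp3 and at Irgm2.

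With Apitolisib, MK5108 and TG100572 left out of the other CKIs, an alternative chosen after seeing the data, 0 member CREs were called in any of the 4 comparisons and the late differences ran from -0.17 to -0.09. The shift depended more on other alternatives. With library contrast as a covariate the late differences ran from -0.12 at Gbp3 to -0.02 at Gbp5. After quantile normalization they ran from -0.11 at Gbp3 to -0.02 at Irgm1. They also moved with the JAK inhibitors entered. Without Pacritinib the differences ran from -0.08 at Gbp3 to 0.03 at Gbp5, and without Tofacitinib from -0.24 at Gbp3 to -0.14 at Gbp5. Within runs, the Gbp2 difference was 0.02 in the run of Filgotinib and BMS911543, -0.34 in that of Momelotinib, -0.17 in that of Tofacitinib and Pacritinib, and -0.07 in that of Ruxolitinib. The Irgm1 differences were 0.07, -0.30, -0.20 and -0.01.

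In UT cells limma called 0 of 43 member CREs (2 at an unadjusted p below 0.05, the CREs 2.3 kb downstream of Gbp5 and 15.8 kb upstream of Igtp, where 0.98% of all CREs had one), and 0 of 59096 over all CREs. The change from UT to late LPS gave 0 of 43 as well (3 at an unadjusted p below 0.05, the CREs 2.3 kb downstream of Gbp5, 5.9 kb upstream of Gbp7 and 5.6 kb downstream of Ifi47), against 4.53% of all CREs, and 0 of 59089 were called over all. At these 3 CREs the change was more positive with the JAK inhibitors: 3.70 against 3.28 with the other CKIs, 1.99 against 1.03, and -0.09 against -0.49. At Gbp2 the JAK inhibitors changed by 2.11 and the others by 2.14 on average. The run-adjusted difference in change was -0.10, with an interval from -0.46 to 0.27.

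After IL-4, with the mean of the 4 times for each compound, 0 of 43 member CREs were called (0.00507% of all CREs were). An unadjusted p below 0.05 was reached by 7 of the 43 and by 5.44% of all CREs. All 8 start CREs again lay below 0, with a median of -0.11, and the lowest was Gbp2 at -0.22 (interval -0.36 to -0.08, limma adjusted p 0.567). Of the lists above, 8 of 11 other family genes, 11 of 16 NF-kB targets and 10 of 20 interferon genes lay below 0 (medians -0.14, -0.02 and -0.01). Without Filgotinib, or without Tofacitinib, 6 of 8 lay below 0 and Gbp7 was the highest, at 0.02 in both. Within runs the Gbp2 difference was -0.33, -0.12, -0.19 and -0.19, so it was below 0 in all 4 runs that hold a JAK inhibitor. At Irgm1 it was -0.13 over all runs, and -0.17, -0.07, -0.13 and -0.10 within the runs.

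**Figure D3:**
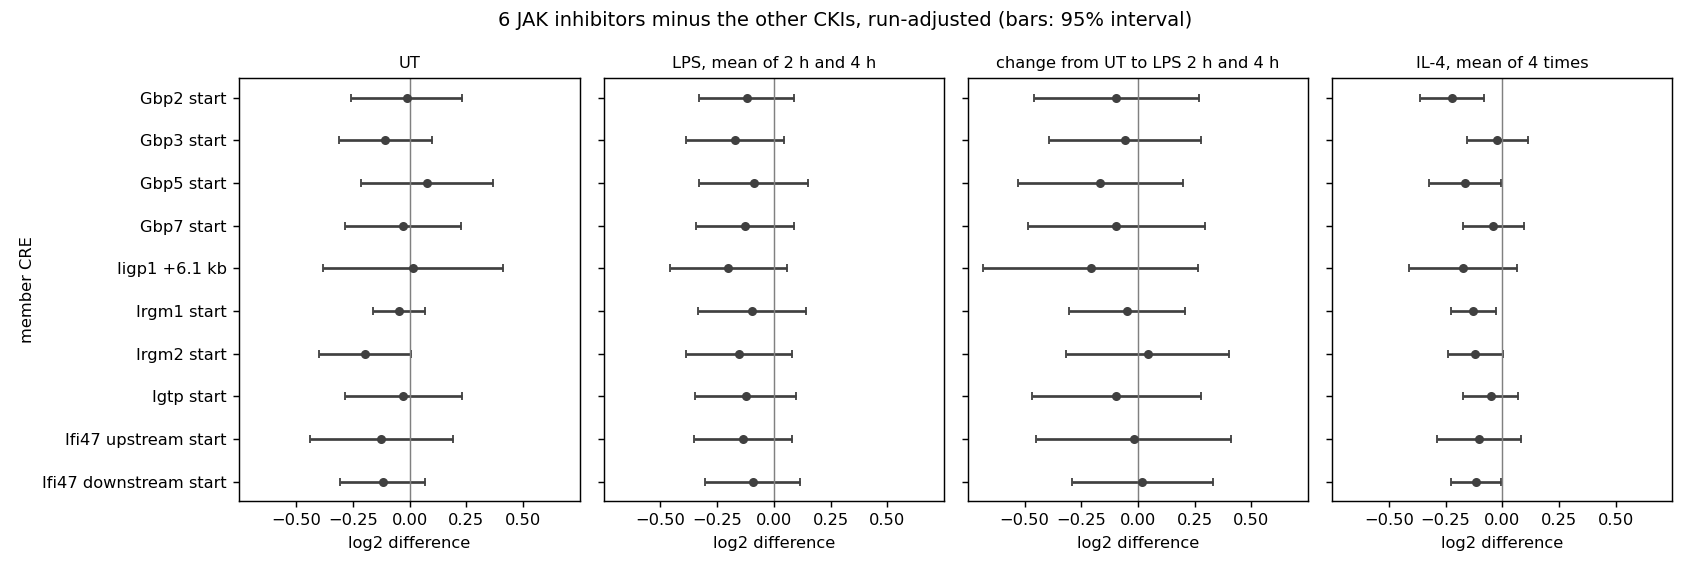
Run-adjusted log2 difference between the 6 JAK inhibitors and the other CKIs (points) with 95% intervals (bars) at the start CREs and the Iigp1 CRE, in UT cells, at 2 h and 4 h of LPS, in the change between the 2, and after IL-4. After IL-4 every start CRE lies left of 0, with Gbp2 lowest at -0.22, and after LPS every interval includes 0.

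The single libraries show how far the JAK inhibitors differed from each other. At 2 h of LPS the Gbp2 start read 532 with Filgotinib, where the other CKIs of its run had a median of 491 and a range of 336 to 670. It read 425 with BMS911543 (median of the others 521), 581 with Momelotinib (704.5), 599 with Ruxolitinib (700) and 801 with Pacritinib (1041). With Tofacitinib it read 1041, above the median of 990 of its run. At 4 h the reading was 471 with Pacritinib and 991 with Tofacitinib, both of the same run, whose other CKIs had medians of 888 and 856; the latter was the highest of its run and the former the second lowest. BMS911543, second lowest of its run at 2 h, was the highest of it at 4 h, at 718.

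Each JAK inhibitor was then tested against the other CKIs of its run over both late times (adjusted p below 0.05 and a log2 difference beyond 0.5). In all, 10 of 258 pairs of a member CRE and a JAK inhibitor were lower, against 0.781% of all such pairs. Pacritinib was lower at 9 of 43 member CREs, among them 7 of the 8 start CREs, and higher at 1, while 1.93% of all CREs were lower with it and 13.9% higher. The other 5 inhibitors gave 1 lower member CRE in all, 9.9 kb downstream of Gbp2 with BMS911543 (-1.88; background 2.19%), and 0 with Filgotinib (0.568%), Momelotinib (0.00338%), Ruxolitinib and Tofacitinib (0% for both). With Pacritinib the Gbp5 start lay at -0.70 (adjusted p 0.030), Gbp7 at -0.70 (0.023), Igtp at -0.70 (0.040), Irgm2 at -0.62 (0.040), Gbp3 at -0.61 (0.030), the upstream Ifi47 start at -0.66 (0.035) and Irgm1 at -0.54 (0.034), all by limma. Gbp2, at -0.55, did not pass (adjusted p 0.073).

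The late LPS libraries of Pacritinib had low contrast for their run. Contrast was 8.24 as the mean of its 2 late libraries, against a median of 35.0 over the other late libraries of the run. The median difference over all CREs was 0.44 with Pacritinib, above 0, while that over the start CREs of all genes was -0.08. The mean difference over the 8 member start CREs was -0.40 at 2 h, where contrast was 10.8, and -0.88 at 4 h, where it was 5.66. With Pacritinib's 4 h library left out, 0 of its member CREs passed, and after quantile normalization its mean start difference was -0.24 in place of -0.64. Before the stimulus and after IL-4, where its contrast was 22 to 49, its mean start difference lay between -0.09 and 0.13. Contrast varied together with time and stimulus in these libraries. Its part in the difference cannot be told apart from theirs and was not tested.

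The other JAK inhibitors had mean start differences from their run of -0.19 (Momelotinib), -0.11 (Ruxolitinib), 0.00 (Filgotinib), 0.06 (BMS911543) and 0.22 (Tofacitinib). The median difference over the start CREs of all genes was 0.01, -0.06, 0.21, 0.02 and 0.01 in the same order, so with Filgotinib the members lay below it. After quantile normalization Filgotinib lay at -0.18 and Ruxolitinib at 0.01, and the other values kept their sign. With Filgotinib the start CREs of all genes then had a median of 0.14. Against DMSO, 65 pairs of a member CRE and a JAK inhibitor were lower, 18 with BMS911543, 17 with Filgotinib, 11 each with Momelotinib and Pacritinib, 8 with Ruxolitinib and 0 with Tofacitinib, where 4.55% of all such pairs were lower. After quantile normalization the number was 7. Order against DMSO and against the run differed, with Filgotinib and BMS911543 among the lowest in the first and at the run mean in the second. All CKIs of that run were low against DMSO: their mean start differences from DMSO ran from -0.90 with Apatinib to -1.38 with AZD2014.

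**Figure D4:**
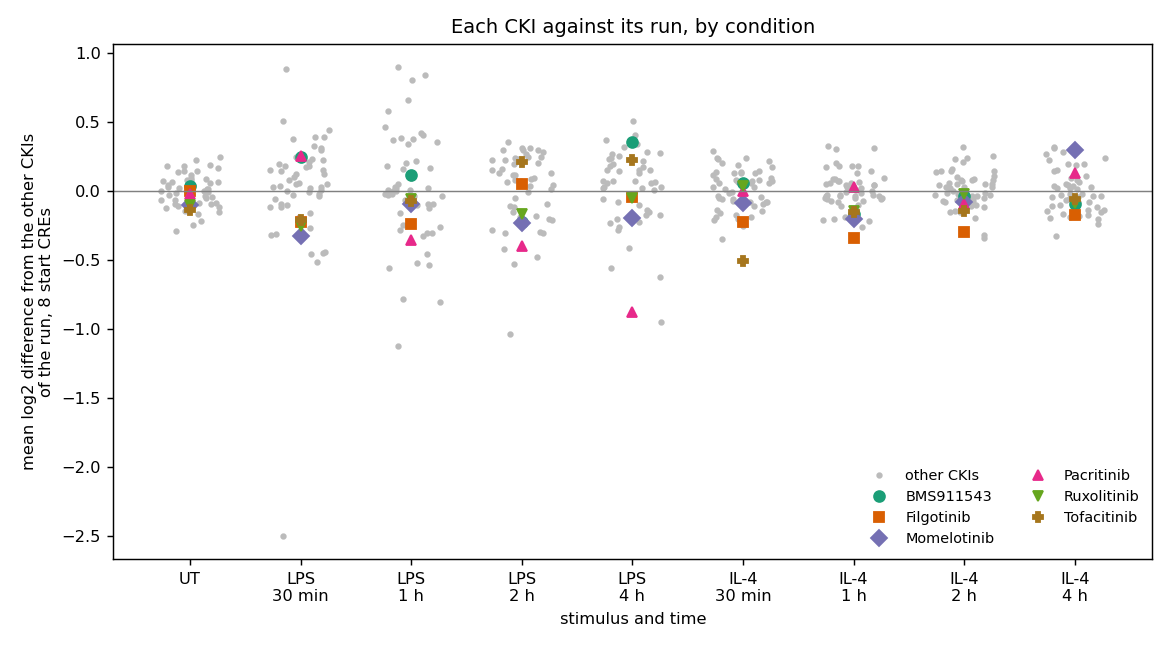
Mean log2 difference of each CKI from the other CKIs of its run over the 8 start CREs, in UT cells and at each time of LPS and IL-4; coloured symbols are the 6 JAK inhibitors and grey points the other CKIs. Pacritinib lies at -0.88 at 4 h of LPS, and Tofacitinib is the lowest of 58 CKIs at 30 min of IL-4, at -0.51.

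At the single IL-4 times, which hold 1 library for nearly every CKI and so allow no test, the lowest mean start difference belonged to a JAK inhibitor at 30 min and at 1 h. Tofacitinib lay at -0.51 at 30 min, with 8 of 8 start CREs below the run and a contrast of 33.1, and the next CKI was AMG208 at -0.35. Filgotinib lay at -0.34 at 1 h and the next, MK2461, at -0.26. At 30 min 3 of the 6 JAK inhibitors lay below 0, and at 1 h 5 of 6. At 2 h of IL-4 all 6 JAK inhibitors lay below 0, between -0.30 and -0.02, but the lowest CKI, at -0.34, was not one of them. At 4 h 4 of 6 lay below 0, with Momelotinib at 0.29, and the lowest CKI, at -0.32, was again outside the JAK group. At the Gbp2 start, Tofacitinib read 108 at 30 min of IL-4, below the 139 to 191 of the other CKIs of its run, and 192 at 1 h, within their range.

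Of the CKIs outside the JAK group, PH797804, an inhibitor of the kinase p38, had the lowest start CREs at late LPS: a mean difference of -0.99 from its run, with 16 member CREs and 8 of 8 start CREs lower, where 9.42% of all CREs were lower with it. A further 9 member CREs were higher with it, as were 51.8% of all CREs, and its median difference over all CREs was 0.86. It was followed by Lenvatinib, a VEGF receptor inhibitor (-0.58, 5 CREs; 2.35% of all), Losmapimod, also directed at p38 (-0.51, 1 CRE; 2.45%), AZD2014 (-0.28, 1 CRE; 5.11%) and the BRAF inhibitor Encorafenib (-0.21, 0 CREs; 0.0845%). Over all CKIs, 37 of 2451 pairs of a member CRE and a CKI were lower, and 0.654% of all pairs. Of other p38 inhibitors, VX702, in the same run as PH797804, lay at 0.26 and Talmapimod at 0.06. Midostaurin, which the study used against the kinase TBK1, lay at -0.03, with 0 of 43 member CREs lower (0.00338% of all).

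These low CKIs also had low contrast: 4.09 with PH797804 against a run median of 35.0, 10.9 with Lenvatinib against 20.3, and 4.37 in the only late library of Losmapimod against 12.7. At 30 min of LPS the PH797804 library, with a contrast of 6.88, listed the Gbp5 start at 0. After quantile normalization the mean start differences were -0.39 with PH797804, -0.28 with Lenvatinib, -0.27 with Losmapimod and -0.02 with AZD2014. The highest mean start differences as deposited were those of MK2461, a MET inhibitor (0.40), the MEK inhibitor Selumetinib (0.27), BGT226 (0.27), GSK461364 (0.26) and VX702 (0.26). The part of contrast in these differences was not tested.

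**Figure D5:**
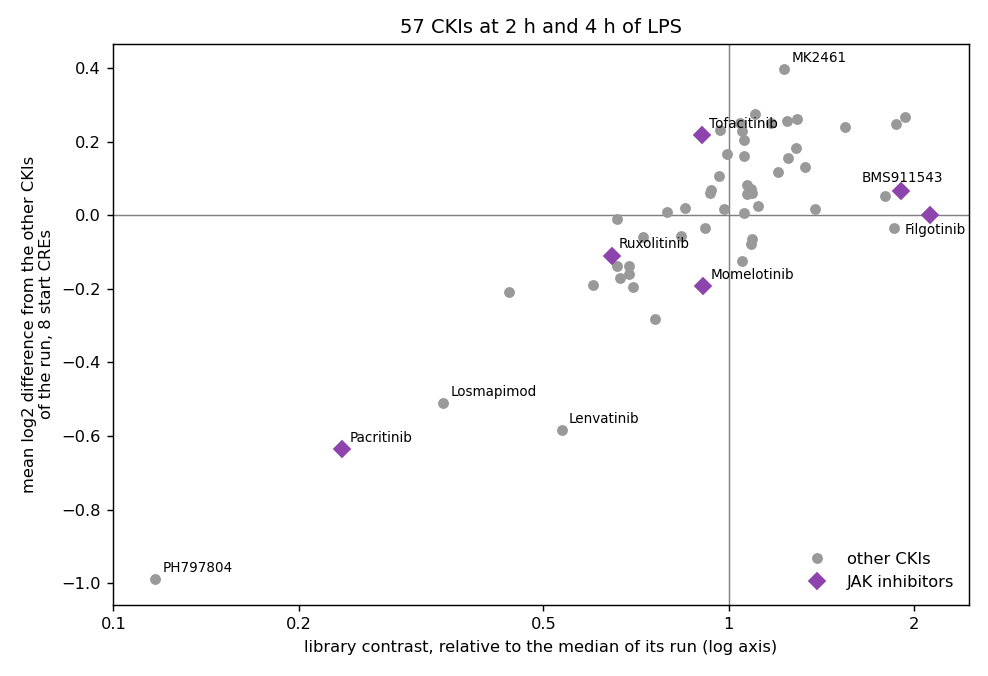
Mean log2 difference of 57 CKIs from the other CKIs of their run over the 8 start CREs at 2 h and 4 h of LPS, against the contrast of their libraries relative to the run median (log axis); purple diamonds are the JAK inhibitors. PH797804 (-0.99), Pacritinib (-0.64), Lenvatinib (-0.58) and Losmapimod (-0.51) lie lowest and left of 1, and Filgotinib and BMS911543 lie near 0 at about the highest relative contrast.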

How the data were processed

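H3K27ac ChIP-seq libraries of mouse BMDMs were analysed from 1 table. Per the labels and methods, the authors cut single-end reads down to 51 bases after adapter removal, mapped them to mm10 with ShortStack (the submitters' processing notes name Bowtie and SAMtools), counted reads around ATAC-seq peaks and scaled libraries on invariant peaks. The deposited values are a score in this sense: normalized read counts rounded to whole numbers, so no count model was used. They were analysed as log2(value + 5), which understates changes of low CREs, with limma 3.58.1 in R 4.3.3 (mean trend) on all CREs with a mean of at least 10, and p-values were adjusted over all of them by Benjamini-Hochberg. The thresholds were an adjusted p below 0.01 and a log2 difference beyond 1 for time courses, and below 0.05 (beyond 0.5 for single CKIs) for inhibitors. The scripts were tested on simulated data. From the spacing of values, reads in CREs were estimated at 2344196 to 4782598 in 12 DMSO and 171252 to 5304799 in 497 CKI libraries, with no estimate in the rest. JAK inhibitors were compared with other CKIs with 1 value per compound and run as a term; runs come from column order, since the labels give no batch. Each CKI was also compared with its run and with DMSO in a model of time and compound. The members, lists and rules were chosen with earlier results of these data known. Named were the start CREs, the 5 other CREs with the largest LPS differences and, of other CKIs, the 5 lowest, the 5 highest and Midostaurin. The other CREs described singly (the downstream Ifi47 start, those lower after LPS, those called after IL-4 or singled out in CKI comparisons) and 2 p38 inhibitors were chosen after their values were seen, as were the tests at single times. Alternatives were other pseudocounts, filters, scalings, windows, a replicate block and libraries left out. For the JAK comparisons they also included library contrast as a covariate, no run term and compounds left out. R1 and R2 do not pair across groups: over 36 pairs of groups their deviations correlated at -0.09 to 0.07. Promoters come from RefSeq (GRCm38.p6) and cover 8 of 9 genes. Iigp1 has 2 RefSeq starts, but its promoters were not searched.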

Additional observations from a re-analysis of the deposited data

Results flagged for a closer look

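The effects of LPS and IL-4 on the members differed by the direct test between the 2 stimuli: 35 member CREs passed, beside 58.4% of all CREs. The largest differences were at the CRE 2.3 kb downstream of Gbp5 (4.66 on the log2 scale at 4 h, higher in LPS) and at that 14.7 kb downstream of Ifi47 (-2.73 at 2 h, lower in LPS). Both stimuli share their UT libraries, which do not enter a difference between them at the same time. Groups of 2 libraries are too small for a search for outlying samples.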

How the results depend on the processing

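After LPS, the number of member CREs called was 34, and 32 to 36 with single libraries left out. Between LPS and IL-4 it was 35, and 33 to 36. After IL-4 it was 4, and 3 to 5, but 2 with a pseudocount of 20, 2 with quantile normalization and 8 in a 50 kb window. A replicate block gave 34, 4 and 35, unchanged; R1 and R2 share only a number (median correlation 0.00), and no call count moved with this pairing. Pairs of a member CRE and a JAK inhibitor lower than the run numbered 10, but 2 with quantile normalization, 0 with all LPS and UT libraries in the fit and 1 without the 4 h library of Pacritinib, an alternative chosen after seeing the data. Against DMSO they numbered 65, 44 to 47 without R1 or R2 of DMSO and 7 with quantile normalization. Quantile normalization moved the median difference over all CREs most at 30 min of IL-4, from 0.09 to -0.09. The causes of these moves were not tested. The 4 JAK comparisons stayed at 0 calls in the alternatives run. Of 1110 alternative fits of single start CREs or the Iigp1 CRE, 1105 stayed on the same side of the threshold. The differences between LPS and IL-4 at Irgm2 and Igtp fell below 1 with quantile normalization (0.95 and 0.89), that at Igtp also without R1 of IL-4 at 2 h (0.95) or of LPS at 2 h (1.00), and the IL-4 difference of the Iigp1 CRE passed 1 without R2 of IL-4 at 4 h (1.05). In the 550 fits of DMSO cells 0 differences turned direction. Of the 560 fits between JAK inhibitors and other CKIs, none of which was called, 30 had the other sign, all of differences reported as 0.10 or less in size. Most CKI groups hold 1 library, which limits every statement on a single compound.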
